A study of Mus musculus with 6 samples.

Results

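The genes described are 10 early response genes, the AP-1 subunits Fos, Fosb, Jun, Junb, Jund and Atf3, the transcription factors Egr1 and Cebpd, and the feedback regulators Zfp36 and Socs3, taken by name from the 16494 genes of the table. All 10 were found, and all 10 passed the filter on low counts in each of the 10 cell types tested. They were followed in single cells of lower abdominal muscle (LAM), the muscle layer that gives way in scrotal hernia, from 3 WT and 3 Aromhum male mice of the FVB/N strain aged 9 to 10 weeks. Aromhum mice carry the human aromatase gene CYP19A1 with its own tissue-specific promoters, so the transgene is not limited to 1 cell type, and they develop scrotal hernia. The tissue of both genotypes was minced, digested warm with collagenase II and dispase II, strained and freed of red cells, and the cells were captured on the 10x Genomics 3′ platform, which leaves out whole muscle fibres. The question was which cell types share a lower level of these genes in Aromhum mice and which do not.

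AP-1 is a dimer of a Jun protein with a Fos, Atf or Jun protein, and it binds the sequence TGANTCA or a near relative of it. Most of its genes are immediate early genes. These are transcribed within minutes of growth factors, cytokines, stretch or stress, without new protein synthesis, and their mRNAs decay quickly. Zfp36 encodes the protein that promotes decay of AU-rich mRNAs, and Socs3 the inhibitor of JAK and STAT3 signalling downstream of gp130, so both close the loop on the signals that induce them. Warm enzymatic digestion of muscle is itself known to induce immediate early and heat shock genes, so the levels measured here hold what the cells carried in the animal and what they made during the preparation. The one cannot be told apart from the other in these data.

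Proximal promoters are shown for the 3 genes in whose windows a searched motif was found. RefSeq promoters of GRCm38.p6 were used for 8 of the 10 members, and 250 bases before the annotated start were searched on both strands. Egr1 was set aside and Cebpd had no entry, so the promoters of these were not searched. Capitals mark the TATA box (TATAAA) of Fos, the CArG box, which binds serum response factor, of Zfp36, and the STAT site (TTCNNNGAA) of Zfp36 and Socs3. The windows are chr12:85473640-85473889 on the plus strand for Fos, chr7:28379229-28379478 on the minus strand for Zfp36 and chr11:117969367-117969616 on the minus strand for Socs3, where the annotated extent of the gene reaches further, to position 117970336.
Fos: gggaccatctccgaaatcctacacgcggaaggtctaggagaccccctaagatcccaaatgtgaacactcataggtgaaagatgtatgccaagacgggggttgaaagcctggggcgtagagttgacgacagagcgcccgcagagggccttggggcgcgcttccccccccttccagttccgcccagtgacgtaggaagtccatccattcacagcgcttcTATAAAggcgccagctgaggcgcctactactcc
Zfp36: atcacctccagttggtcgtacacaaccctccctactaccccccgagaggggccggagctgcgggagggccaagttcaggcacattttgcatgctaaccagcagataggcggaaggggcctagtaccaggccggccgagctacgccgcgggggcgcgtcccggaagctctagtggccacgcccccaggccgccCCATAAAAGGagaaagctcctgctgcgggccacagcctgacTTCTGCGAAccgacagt
Socs3: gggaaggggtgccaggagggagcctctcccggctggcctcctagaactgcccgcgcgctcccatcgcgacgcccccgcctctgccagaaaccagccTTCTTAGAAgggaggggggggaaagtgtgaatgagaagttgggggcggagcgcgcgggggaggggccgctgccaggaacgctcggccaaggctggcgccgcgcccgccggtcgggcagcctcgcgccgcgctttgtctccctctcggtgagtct
The TATA box of Fos lay 33 to 28 bases before the start, the CArG box of Zfp36 58 to 49 bases and its STAT site 17 to 9 bases before it, and the STAT site of Socs3 154 to 146 bases before it. Over 32851 promoter windows of the same length, 12.4% held TATAAA, 1.47% a CArG box and 7.02% TTCNNNGAA. The AP-1 site TGANTCA, in 6.75% of all windows, the CRE TGACGTCA, in 1.55%, and the C/EBP site TTGCNNCAA, in 1.74%, had no match in the 8 windows, which says only that these letters are not in them. A match is a run of letters, not a measured site.

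The 6 libraries held 7905 to 13764 barcodes and 64958237 to 111826460 UMIs each, and 471 barcode sequences occurred in more than 1 library. The median barcode held 4728.5 to 5897 UMIs in WT and 6673 to 8727 in Aromhum mice, so that depth per cell differed with the genotype. WT 2 stood apart by its mitochondrial share, with a median of 6.62% and 68.2% of its barcodes over 5%. Transgene UMIs numbered 770, 797 and 787 in the Aromhum libraries and 0 in each WT library, and 532, 529 and 489 of them were in fibroblast-like cells. Cells were clustered without the members and named from marker genes. Fibroblast-like cells were 21.0% to 35.4% of the WT and 39.2% to 49.6% of the Aromhum barcodes, endothelial cells 37.4% to 49.3% and 17.4% to 29.6%. The mouse was the replicate. Levels are UMIs summed over the cells of a type in a mouse and scaled to the library with TMM size factors (CPM). A gene was called at an adjusted p under 0.05, by edgeR's quasi-likelihood test and the Benjamini-Hochberg procedure over all genes tested in that type.

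In fibroblast-like cells, the matrix-producing cells of the muscle, 6 of the 10 genes were lower in Aromhum mice, and the fall was more than 2-fold for Fos, Zfp36, Socs3 and Cebpd. Junb and Egr1 fell less. By the same test 5.83% of the 13947 genes were lower and 7.28% higher, and no member was higher. All 10 log2 folds were negative, with a median of -1.01 beside 0.01 over all genes. In 9 of the 10 every Aromhum mouse lay below every WT mouse, which held for 18.6% of all genes.

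Fos, the subunit of AP-1 whose mRNA is the classical marker of recent stimulation, stood at 2291, 2411 and 2650 CPM in the WT and 848, 903 and 1311 CPM in the Aromhum mice. Aromhum 3 was the highest of its group, and the groups did not overlap. The log2 fold was -1.26 ± 0.19 (SE, n = 3 mice per genotype, adjusted p = 0.0208). Junb, a Jun protein that often restrains Jun, stood at 3716, 2691 and 3245 CPM in WT and 1674, 1404 and 1914 CPM in Aromhum mice. The lowest WT mouse was again above the highest Aromhum mouse, with a log2 fold of -0.95 ± 0.18 (SE, adjusted p = 0.0275). Egr1, a zinc finger factor induced through serum response factor, went from 1742, 1679 and 1951 CPM to 874, 915 and 1245 CPM. Its log2 fold of -0.82 ± 0.17 (SE, adjusted p = 0.03) was the smallest of the 6.

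The feedback regulators and Cebpd had log2 folds between -1.25 and -1.43. Zfp36 stood at 1026, 994 and 1337 CPM in WT and 381, 301 and 595 CPM in Aromhum mice, a log2 fold of -1.40 ± 0.27 (SE, adjusted p = 0.0272). Socs3 stood at 774, 509 and 510 CPM in WT, WT 1 being above the other 2, and at 201, 131 and 336 CPM in Aromhum mice. The groups did not overlap, and the log2 fold was -1.43 ± 0.35 (SE, adjusted p = 0.0428). Cebpd, a factor of the acute phase and of adipocyte and fibroblast differentiation that responds to IL-6 and glucocorticoid, went from 2292, 1849 and 2149 CPM to 806, 577 and 1264 CPM. Aromhum 2 was the lowest and Aromhum 3 the highest of the Aromhum mice, and the log2 fold was -1.25 ± 0.28 (SE, adjusted p = 0.037).

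The other 4 genes were not called. Atf3, a stress-induced partner of Jun, had a log2 fold as large as those called, -1.06 ± 0.32 (SE, adjusted p = 0.068), with widely spread Aromhum values of 472, 420 and 957 CPM beside 1296, 1094 and 1470 CPM in WT. Jun, the Jun protein that activates most strongly, had 1678, 1627 and 1948 CPM in WT and 1320, 1037 and 1624 CPM in Aromhum mice, with a log2 fold of -0.40 ± 0.19 (SE, adjusted p = 0.181). Jund, the Jun protein present without stimulation, had 2753, 2114 and 2304 CPM in WT and 1823, 1823 and 1775 CPM in Aromhum mice, with a log2 fold of -0.40 ± 0.14 (SE, adjusted p = 0.0971). Fosb was the 1 member whose groups overlapped, at 1258, 1093 and 934 CPM in WT and 893, 1110 and 714 CPM in Aromhum mice. Its log2 fold was -0.27 ± 0.19 (SE, adjusted p = 0.355).

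**Figure D1:**
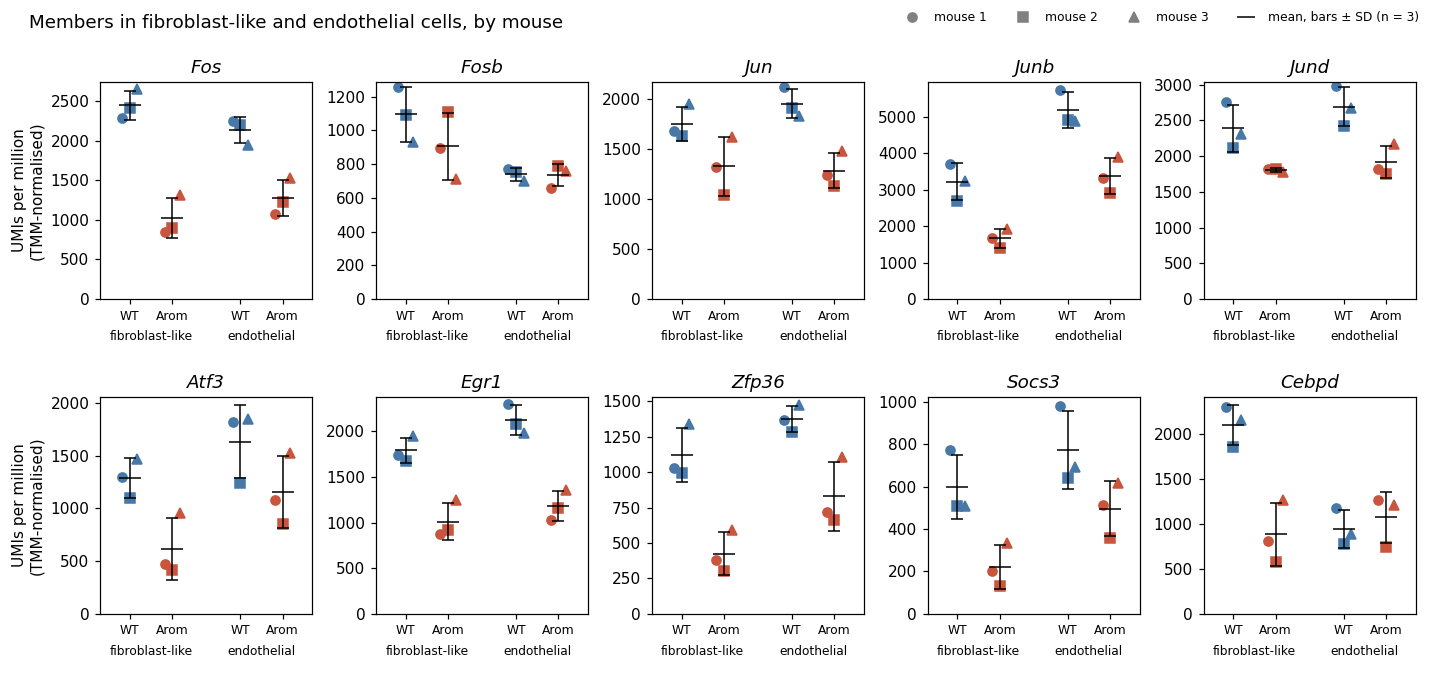
TMM-normalised CPM of the 10 members (y axis, from 0) in fibroblast-like and endothelial cells of each mouse; blue marks are WT and red marks Aromhum mice 1, 2 and 3, and black bars are the mean ± SD of 3 mice. In fibroblast-like cells the red marks of Fos, at 848 to 1311, lie below the blue marks at 2291 to 2650, while Fosb overlaps in both types and Cebpd overlaps in endothelial cells.

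Leaving out 1 mouse changed the number of calls: it was 8 without Aromhum 3 and 0 without any other single mouse, where 0 to 55 of all genes were still called lower. The share of 5.83% belongs to the fit of all mice, and none is given without Aromhum 3. All 10 log2 folds kept their sign under the alternatives run, in 230 of 230 values. With at most 2500 genes per cell 0 members were called. Aromhum fibroblast-like cells held a median of 11717, 8941.5 and 12541 UMIs and WT cells 8558, 9138 and 9869. The summed fibroblast markers overlapped between genotypes, at 43950 to 49770 CPM in WT and 42490 to 52400 CPM in Aromhum mice, but 3 of the 7 were called higher and 1 lower. Those of macrophages were 10.3 to 12.2 CPM in WT and 14.5 to 27.8 CPM in Aromhum mice, with 2 of the 6 tested called higher, and those of mesothelial cells 1.25 to 3.12 CPM and 4.52 to 8.76 CPM, with 2 of 4 called higher. Those of glial cells, at 17.2 to 37.6 CPM and 10.0 to 12.1 CPM, and of myonuclei, at 30.1 to 67.2 CPM and 25.9 to 29.6 CPM, were below WT in all Aromhum mice, with 1 marker of each called lower. Endothelial markers overlapped in sum, with 3 of 7 called lower and 1 higher. Markers of dendritic cells (1.15 to 2.53 CPM in WT and 4.24 to 9.33 CPM in Aromhum mice, the 1 tested called) and epithelial cells (0.451 to 0.624 CPM and 1.09 to 2.23 CPM, 1 of 2 called) were higher, and those of MuSC/myoblast cells (10.6 to 14.97 CPM and 6.04 to 9.10 CPM, 0 of 4 called) were below WT in all Aromhum mice. The part of depth or of these markers in the result was not tested.

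Endothelial cells shared the fall of Fos, Junb, Egr1 and Zfp36. Jun and Jund, not called in fibroblast-like cells, were called in them as well, so that 6 of 10 members were called lower and none higher. For Jun and Jund the difference between the types, tested below, was not called, at -0.17 and -0.08 (log2). By the same test 4.61% of the 13379 genes were lower and 6.44% higher. The median log2 fold of the members was -0.61 beside -0.02 over all genes. Every Aromhum mouse was below every WT mouse in 7 members, and in 18.1% of all genes.

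Egr1 had the largest endothelial change, from 2306, 2085 and 1985 CPM in WT to 1031, 1160 and 1360 CPM in Aromhum mice, a log2 fold of -0.84 ± 0.13 (SE, adjusted p = 0.014). Fos went from 2254, 2203 and 1945 CPM to 1076, 1228 and 1527 CPM, a log2 fold of -0.74 ± 0.15 (SE, adjusted p = 0.0236). For both genes the groups stood apart, with Aromhum 3 nearest to WT. Zfp36 had 1370, 1285 and 1473 CPM in WT and 720, 659 and 1108 CPM in Aromhum mice, with a log2 fold of -0.73 ± 0.19 (SE, adjusted p = 0.0482). Junb had 5743, 4910 and 4898 CPM in WT and 3312, 2912 and 3901 CPM in Aromhum mice, with a log2 fold of -0.62 ± 0.14 (SE, adjusted p = 0.0319). The lowest WT mouse was above the highest Aromhum mouse in each of these genes, and also in Jun and Jund, whose log2 folds were -0.61 ± 0.13 (SE, adjusted p = 0.0281) and -0.49 ± 0.13 (SE, adjusted p = 0.0474).

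Socs3 and Atf3 were not called in endothelial cells, at log2 folds of -0.64 ± 0.23 (SE, adjusted p = 0.102) and -0.50 ± 0.23 (SE, adjusted p = 0.185). Cebpd, at 1174, 773 and 882 CPM in WT and 1259, 747 and 1207 CPM in Aromhum mice, had a log2 fold of 0.18 ± 0.23 (SE, adjusted p = 0.615), and its groups overlapped. Fosb, at 771, 753 and 698 CPM in WT and 659, 787 and 759 CPM in Aromhum mice, had overlapping groups and a log2 fold of -0.01 ± 0.11 (SE). The calls fell to 0 without Aromhum 1 or Aromhum 2 and to 1 without any single WT mouse, and rose to 8 without Aromhum 3. The share of 4.61% of all genes belongs to the fit of all mice, and none is given for these fits. They were 3 with doublets left out or with at most 2500 genes per cell and 1 with equal weight for each cluster.

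Markers of other cells moved with the genotype in endothelial cells. Those of fibroblasts summed to 1461 to 2922 CPM in WT and 3264 to 7034 CPM in Aromhum mice, with 6 of 7 called higher. Those of endothelial cells summed to 4093 to 4385 CPM in WT and 3581 to 3951 CPM in Aromhum mice, with 2 of 7 called lower. Those of myonuclei summed to 90.8 to 133 CPM and 43.8 to 68.2 CPM, with 4 of 7 called lower. Their part in the members' difference was not tested.

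Muscle stem cells and myoblasts (MuSC/myoblast cells) had 2 members called lower, beside 0.966% of 8078 genes. Fos stood at 1169, 926 and 608 CPM in WT and 368, 354 and 486 CPM in Aromhum mice, a log2 fold of -1.16 ± 0.23 (SE, adjusted p = 0.0395). Fosb, the Fos protein whose message was not called in fibroblast-like or endothelial cells, stood at 587, 567 and 466 CPM in WT and 328, 304 and 356 CPM in Aromhum mice, a log2 fold of -0.72 ± 0.14 (SE, adjusted p = 0.0396). In both genes the genotypes did not overlap, and all 10 log2 folds were negative, with a median of -0.80. The deviations of same-numbered mice correlated weakly in this type, at 0.183, 0.101 and 0.137. With the replicate number as a block 5 members were called: beside Fos and Fosb, Atf3 at a log2 fold of -0.90, Zfp36 at -0.99 and Egr1 at -1.02 (adjusted p = 0.0321, 0.017 and 0.0287). Without Aromhum 3, 7 members were called, and without any other mouse 0. Both calls were also lost when cells over 5% mitochondrial UMIs were left out, at resolution 0.4 and among cells of 2000 to 5000 or of 5000 to 10000 UMIs. The share of 0.966% belongs to the main fit, and no share over all genes is given for these other fits. The fibroblast markers summed to 486 to 756 CPM in WT and 1271 to 3583 CPM in Aromhum mice in these cells, with 6 of 6 tested called higher, and those of MuSC/myoblast cells to 2464 to 4273 CPM and 1349 to 2264 CPM, with 1 of 6 called lower. Those of smooth muscle summed to 514 to 702 CPM and 1051 to 1371 CPM, with 2 of the 4 tested called higher. The cluster also held the spermatid messages Prm1, Prm2 and Tnp2 in WT 3, Prm1 at 2739 CPM beside at most 29 CPM in any other mouse, which were noticed after the values were seen. The part of these in the result was not tested.

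Smooth muscle cells and pericytes had 1 member called, Fos, beside 0.584% of 9412 genes. It stood at 3247, 3009 and 2797 CPM in WT and 1562, 1059 and 1941 CPM in Aromhum mice, a log2 fold of -0.99 ± 0.22 (SE, adjusted p = 0.0448). All 10 log2 folds were negative, from -0.99 to -0.10. The call was lost without any single mouse but Aromhum 3, without which 5 members were called, when doublets or cells over 5% mitochondrial UMIs were left out, when the listed genes were kept in the clustering and among cells of 2000 to 5000 UMIs. The share of 0.584% belongs to the main fit, and none is given without Aromhum 3. The median mitochondrial share was 9.99% to 14.9% in WT and 7.93% to 8.39% in Aromhum smooth muscle cells. Fibroblast markers summed to 2600 to 4177 CPM in WT and 4474 to 6679 CPM in Aromhum mice in these cells, with 3 of 7 called higher. Markers of MuSC/myoblast cells summed to 26.7 to 51.1 CPM and 8.60 to 17.6 CPM, with the 1 tested called lower, while those of smooth muscle overlapped. The part of the mitochondrial share and of these markers was not tested.

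In myonuclei, the muscle fibre nuclei and fragments that passed the strainer, edgeR called 0 members lower, beside 0.213% of 7499 genes. An unadjusted p under 0.05 was found for 5 members, beside 709 of the 7499 genes. Deviations of same-numbered mice correlated weakly here too, at 0.125, 0.16 and 0.226, and with the replicate block 2 members were called. The share of 0.213% belongs to the fit without the block. Egr1 had 416, 544 and 236 CPM in WT and 131, 203 and 160 CPM in Aromhum mice, with a blocked log2 fold of -1.23 ± 0.20 (SE, adjusted p = 0.00485). Zfp36 had 215, 320 and 157 CPM in WT and 90.2, 87.2 and 130 CPM in Aromhum mice, with a blocked log2 fold of -1.16 ± 0.24 (SE, adjusted p = 0.0205). DESeq2 also called 2 members in this type, and no share over all genes is given for the block or for DESeq2. WT 2 was the highest and WT 3 the lowest WT mouse for both genes, and WT 2 also had a median of 5.11% mitochondrial UMIs in this type beside 0.275% to 1.19% in the other mice. Endothelial markers summed to 346, 411 and 524 CPM in WT and 117, 134 and 208 CPM in Aromhum myonuclei, with 2 of 7 called lower, and endothelial cells held more Egr1 and Zfp36 than myonuclei. Macrophage markers summed to 10.3 to 48.2 CPM in WT and 95.2 to 178 CPM in Aromhum myonuclei, with 1 of the 3 tested called higher. Fibroblast markers, at 2583 to 6038 CPM and 2838 to 7836 CPM, and myonuclear markers overlapped. The part of these markers in the result was not tested.

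The 10 genes did not pass the test in the other 5 cell types, and by edgeR's quasi-likelihood test 0 members were called lower or higher in each. In lymphatic endothelial cells 0.0% of 7669 genes were called lower and DESeq2 called 0 members. The unadjusted p was under 0.05 for 0 members, beside 546 of the 7669 genes. Fos there stood at 3765, 3321 and 4696 CPM in WT and 3543, 3754 and 3755 CPM in Aromhum mice, so that the groups overlapped around a log2 fold of -0.09 ± 0.13 (SE). Glial cells, the Schwann cells of muscle nerves, had 0.177% of 9586 genes called lower and 0 members called by DESeq2. With an unadjusted p under 0.05 there were 3 members, beside 1004 of the 9586 genes. Fos was below WT in all 3 Aromhum mice, at 1889, 1637 and 2106 CPM beside 2697, 2118 and 2471 CPM, with a log2 fold of -0.37 ± 0.13 (SE, adjusted p = 0.344). In glial cells fibroblast markers summed to 8398 to 10380 CPM in WT and 10990 to 12840 CPM in Aromhum mice, with 1 of 7 called higher. Markers of endothelial cells (327 to 462 CPM and 152 to 267 CPM, 0 of 7 called), macrophages (1981 to 4424 CPM and 1221 to 1839 CPM, 0 of 2), MuSC/myoblast cells (58.8 to 68.4 CPM and 13.01 to 25.1 CPM, 1 of 2) and smooth muscle (319 to 712 CPM and 211 to 304 CPM, 1 of 4) were below WT in all Aromhum mice, and the part of these markers was not tested.

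Mesothelial cells, the lining of the peritoneal face, went the other way for most members: 7 of 10 log2 folds were positive and the median was 0.30. None was called by edgeR or DESeq2, and 0.0342% of 11713 genes were called lower. Only 1 member had an unadjusted p under 0.05, beside 2394 of the 11713 genes, so that count is no result about the members. Atf3 stood at 2469, 1583 and 1097 CPM in WT and 2628, 2450 and 2441 CPM in Aromhum mice, a log2 fold of 0.55 ± 0.27 (SE, adjusted p = 0.291). WT 1 was above the other WT mice in all 10 members, and WT mesothelial cells numbered 149, 173 and 68 beside 663, 1013 and 677 in Aromhum mice. Fibroblast markers summed to 16250 to 16910 CPM in WT and 20540 to 20700 CPM in Aromhum mesothelial cells and dendritic cell markers to 14.1 to 99.9 CPM and 136 to 382 CPM, with 0 of the 7 and 0 of the 1 tested called, and their part was not tested. Socs3 was the member with an unadjusted p under 0.05, at 422, 223 and 227 CPM in WT and 182, 150 and 186 CPM in Aromhum mice, with a log2 fold of -0.75 ± 0.25 (SE, adjusted p = 0.155).

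Macrophages and monocytes had 0.0512% of 7809 genes called lower and 0 members called by DESeq2. The unadjusted p was under 0.05 for 0 members, beside 760 of the 7809 genes. Socs3 stood at 315, 166 and 342 CPM in WT and 490, 384 and 279 CPM in Aromhum mice, a log2 fold of 0.50 ± 0.32 (SE, adjusted p = 0.686), and WT 2 was the lowest WT mouse for all 10 members. The cells numbered 227, 147 and 71 in WT and 1608, 882 and 82 in Aromhum mice, and 12.2% to 36.6% of them were marked as doublets. Aromhum 3, with 82 cells, lay inside the WT range for Socs3. Fibroblast markers summed to 2505 to 3457 CPM in WT and 6879 to 7889 CPM in Aromhum macrophages, with 3 of 7 called higher, and their part was not tested. T cells had 0.0% of 2851 genes called lower and 0 members called by DESeq2. Only 1 member had an unadjusted p under 0.05, beside 429 of the 2851 genes, so that count is no result about the members. That member was Junb, at 3353, 2622 and 3606 CPM in WT and 2128, 1659 and 2477 CPM in Aromhum mice, with a log2 fold of -0.61 ± 0.22 (SE, adjusted p = 0.245). T cells numbered 20 to 54 in WT and 31 to 182 in Aromhum mice, and 9.34% to 64.5% of them were marked as doublets. T cell markers summed to 2712 to 3035 CPM in WT and 1499 to 2277 CPM in Aromhum mice, with 0 of 6 called. Erythroid markers, with 0 tested, stood at 114, 9814 and 52.5 CPM in WT, WT 2 being far above the other mice, and 4.94, 15.6 and 17.4 CPM in Aromhum mice, and those of MuSC/myoblast cells at 17.5 to 100.4 CPM and 2.47 to 17.4 CPM. The part of these markers was not tested.

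**Figure D2:**
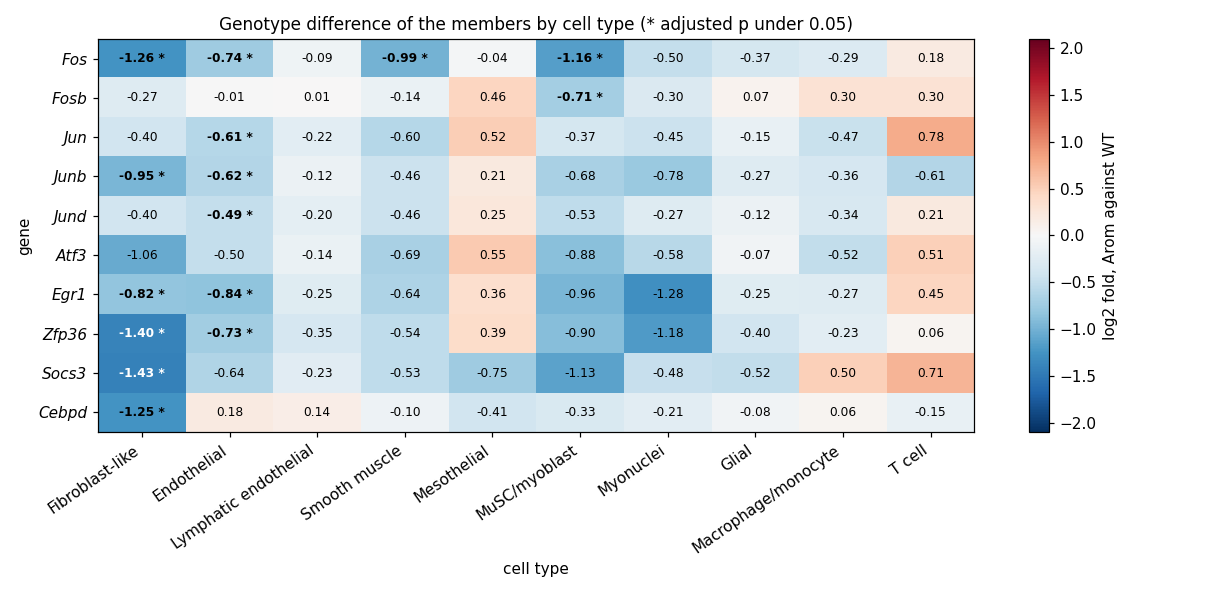
Log2 fold of Aromhum against WT mice (colour and number in each cell, 3 mice per genotype) for the 10 members (rows) in the 10 cell types tested (columns); bold numbers with a star passed an adjusted p of 0.05. The stars stand in fibroblast-like (6), endothelial (6), MuSC/myoblast (2) and smooth muscle cells (1), and 7 of the 10 mesothelial values are above 0.

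Whether a type differed from fibroblast-like cells was tested as the interaction of genotype and type with the mouse as a factor. The 9 tests share the fibroblast-like sums, and a positive value is a smaller fall, or a rise, in the other type. In endothelial cells 5 members fell less, beside 7.18% of 14565 genes with a difference called in that direction. Cebpd differed most, by 1.51 ± 0.19 (log2, SE, adjusted p = 0.0106), followed by Socs3 at 0.88 ± 0.15 (SE, adjusted p = 0.0194) and Zfp36 at 0.70 ± 0.12 (SE, adjusted p = 0.017). Atf3 and Fos differed by 0.66 and 0.56. Egr1, at 0.01 ± 0.13 (SE), Jund, at -0.08 ± 0.11 (SE), and Jun, at -0.17 ± 0.14 (SE), were not called.

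Lymphatic endothelial and glial cells each had 6 members with a smaller fall, Fos, Junb, Atf3, Zfp36, Socs3 and Cebpd, beside 0.695% of 12955 and 1.3% of 13337 genes. With limma voom and an estimated correlation within the mouse 0 members were called for either type. The difference in Fos was 1.24 ± 0.19 (log2, SE, adjusted p = 0.0102) for lymphatic endothelial and 0.93 ± 0.16 (SE, adjusted p = 0.0161) for glial cells. Smooth muscle cells had 3, Zfp36, Socs3 and Cebpd, beside 2.86% of 12923 genes. Their Fos difference of 0.31 ± 0.18 (SE, adjusted p = 0.37) was not called. Macrophages and monocytes had 3, Fos, Socs3 and Cebpd, beside 1.1% of 13495 genes, with Socs3 at 2.13 ± 0.43 (log2, SE, adjusted p = 0.0262).

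Mesothelial cells had 1 called, Zfp36 at 1.87 ± 0.36 (log2, SE, adjusted p = 0.0421), beside 1.22% of 13957 genes. The other 9 differences were positive as well, from 0.69 to 1.80, with adjusted p from 0.062 to 0.163, and without Aromhum 3 all 10 were called. T cells had 7 called, beside 4.23% of 12709 genes. In that comparison the median of all genes was itself shifted by 0.38, so the T cell differences, such as 1.54 for Fos, stand against that shift. For MuSC/myoblast cells 0 of 10 and for myonuclei 0 of 10 were called by edgeR, beside 0.434% of 12672 and 0.202% of 12847 genes. Of the MuSC/myoblast differences 2 had an unadjusted p under 0.05 (Zfp36 at 0.45 and Cebpd at 1.06), and of the myonuclear ones 3 (Fos, Socs3 and Cebpd). No share over all genes is given for that cut. With limma voom and an estimated correlation within the mouse, 1 member was called for endothelial cells (Cebpd), 3 for mesothelial cells and 0 for each of the other 7 types, so the counts depend on that choice. Within the limits on cells given by the study, 0 members differed for endothelial and 1 for lymphatic endothelial cells.

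The make-up of fibroblast-like cells differed between genotypes, and the genes were therefore compared inside the 7 fibroblast-like clusters with at least 20 cells in each mouse. In 2 of them 7 members were lower. Cluster 0, led by Myoc and Thbs4, had Fos, Junb, Atf3, Egr1, Zfp36, Socs3 and Cebpd called, beside 2.4% of 11540 genes. Fos stood at 1518, 1536 and 1593 CPM in WT and 636, 841 and 856 CPM in Aromhum mice, a log2 fold of -0.99 ± 0.14 (SE, adjusted p = 0.00548). This cluster held 554 to 1091 WT and 1097 to 1559 Aromhum cells in each mouse, and 2 to 7 members were called with 1 mouse left out.

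Cluster 4, led by Pnoc, Ren1 and Nppc, had the largest fall of the 7 clusters in 8 members, all but Jun and Jund, with Fos, Fosb, Junb, Atf3, Egr1, Zfp36 and Socs3 called, beside 4.9% of 11694 genes. Fos stood at 5143, 5981 and 7482 CPM in WT and 1291, 1314 and 2063 CPM in Aromhum mice, a log2 fold of -1.995 ± 0.24 (SE, adjusted p = 0.00591). Socs3 stood at 757, 928 and 807 CPM in WT and 159, 104 and 330 CPM in Aromhum mice, a log2 fold of -2.07 ± 0.38 (SE, adjusted p = 0.0199). Zfp36 had a log2 fold of -2.03 ± 0.37 (SE, adjusted p = 0.0195). The groups were apart for each of these 3 genes. The cluster held 350, 117 and 102 WT and 904, 1263 and 551 Aromhum cells, and 1 to 8 members were called with 1 mouse left out.

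In cluster 16, led by the tendon genes Tnmd and Fmod, Fos was called, beside 0.543% of 9032 genes. It stood at 3518, 3287 and 3374 CPM in WT and 1805, 1509 and 2360 CPM in Aromhum mice, a log2 fold of -0.84 ± 0.17 (SE, adjusted p = 0.0474), and the call was lost without any single mouse but Aromhum 3, without which 8 members were called. In clusters 2, 10, 13 and 28 edgeR called 0 members, beside 0.0269%, 0.144%, 0.355% and 0.0216% of the 11144, 9045, 7609 and 4626 genes. An unadjusted p under 0.05 was found for 8, 6, 3 and 7 members, beside 1849, 1341, 1274 and 345 of those genes. DESeq2 called 6, 1, 0 and 0 members. Cluster 10, led by Dmkn and Krt23, had 2 positive log2 folds, Fosb at 0.44 and Jun at 0.20, and its Socs3 had 439, 382 and 368 CPM in WT and 110, 116 and 227 CPM in Aromhum mice (log2 fold -1.41 ± 0.26, SE, adjusted p = 0.0517). In cluster 13, led by Mmp3, Fos had 1177, 1337 and 1030 CPM in WT and 486, 569 and 1523 CPM in Aromhum mice, so that Aromhum 3, with 47 cells, lay above all WT mice, and without it 8 members were called. The shares over all genes given for these clusters belong to the main fit, not to DESeq2 or to fits with 1 mouse left out. Cluster 12 held 14, 2 and 3 WT cells and was not tested.

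**Figure D3:**
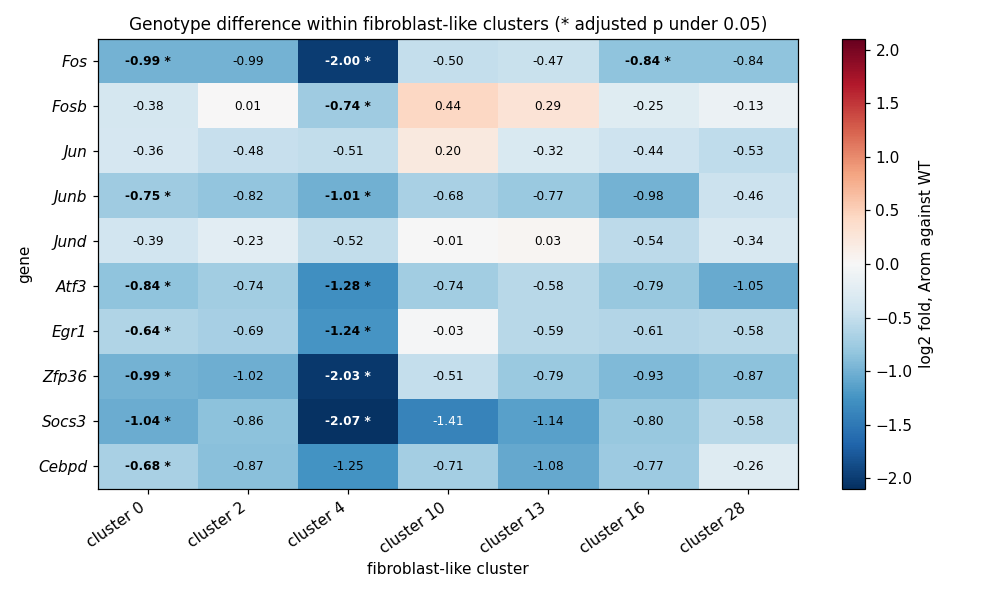
Log2 fold of Aromhum against WT mice (colour and number in each cell, 3 mice per genotype) for the 10 members (rows) in the 7 fibroblast-like clusters tested (columns); bold numbers with a star passed an adjusted p of 0.05. Clusters 0 and 4 have 7 stars each, cluster 16 has 1, and the darkest values are Socs3, Zfp36 and Fos in cluster 4, near -2.

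Shares of cells were compared after each cell was thinned to 1000 UMIs, so that deeper cells did not show more genes. A UMI of Fos was found in 43.3%, 46.9% and 54.4% of WT and 29.0%, 29.2% and 42.8% of Aromhum fibroblast-like cells, and a UMI of Cebpd in 70.4%, 64.2% and 66.1% of WT and 45.2%, 38.6% and 57.6% of Aromhum cells. For 7 members every Aromhum mouse was below every WT mouse in fibroblast-like cells, for 5 in MuSC/myoblast, 4 in endothelial, 2 in smooth muscle and 2 in T cells, and for none in the other 5 types. Each of these had p = 0.1 in the 2-sided exact permutation test over 6 mice, the lowest that 3 against 3 mice allow, and 0.4545 after adjustment over 100 tests, so none could pass. In mesothelial cells 2 members, Jun and Atf3, had every Aromhum mouse above every WT mouse. Only the members were thinned, so no share over all genes stands beside these counts, and they have no background. By CPM, every Aromhum mouse lay below every WT mouse in 18.6% of fibroblast-like and 18.1% of endothelial genes. No cell type of this tissue is known to lack these genes. Among the lowest shares for Fos were 15.5% to 18.4% in myonuclei of the 6 mice and 13.3% to 16.05% in T cells of Aromhum mice (T cells of WT mice had a mean of 22.9%), whose median depths before thinning were 1622 to 3612 and 1941.5 to 3777 UMIs, beside 8558 to 12541 UMIs in fibroblast-like cells of the 6 mice.

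The UMIs of the 10 members were also summed within each thinned cell. The median fibroblast-like cell held 14, 13 and 14 of them per 1000 UMIs in WT and 7, 7 and 10 in Aromhum mice. The 10th percentile was 5, 2 and 4 in WT and 2, 2 and 3 in Aromhum mice, and the 90th was 37, 35 and 37 and 19, 19 and 27, so that the groups were apart at the 90th percentile and overlapped at the 10th. Cells with none of the 10 messages were rare in both genotypes, at 0.618% to 2.03% of WT and 0.687% to 1.85% of Aromhum cells. The median endothelial cell held 19, 14 and 16 in WT and 12, 10 and 13 in Aromhum mice. The median mesothelial cell held 15.5, 6 and 6 in WT and 17, 15 and 14 in Aromhum mice, with WT 1 near the Aromhum mice.

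**Figure D4:**
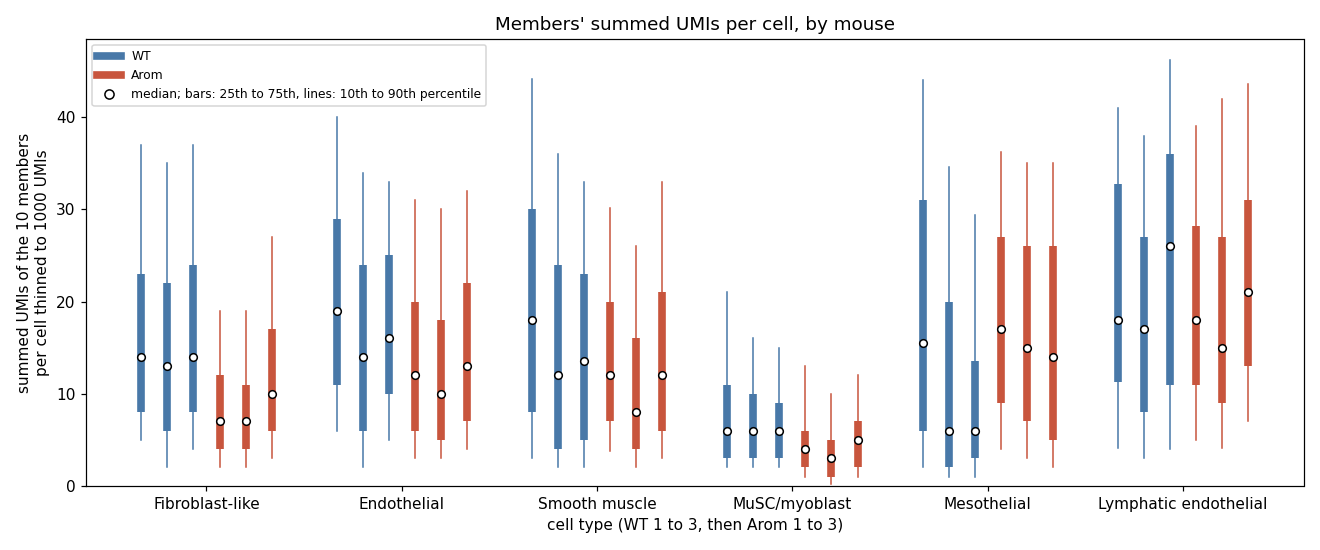
Summed UMIs of the 10 members per cell thinned to 1000 UMIs (y axis, from 0) in 6 cell types (x axis), for WT mice 1 to 3 (blue) and Aromhum mice 1 to 3 (red); circles are medians, thick bars the 25th to 75th and thin lines the 10th to 90th percentile of the cells. Fibroblast-like medians are 13 to 14 in WT and 7 to 10 in Aromhum mice, while mesothelial medians are 6 to 15.5 and 14 to 17.

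The size of the fall differed with the depth of the cell. In fibroblast-like cells of 1000 to 2000 UMIs the log2 ratio of the mean CPM, Aromhum to WT, was -0.62 for Fos, -0.65 for Socs3 and -0.45 for Cebpd, and in cells of 20000 UMIs or more it was -1.34, -1.99 and -1.82. Cebpd in the deepest cells stood at 1846, 1303 and 1974 CPM in WT and 405, 333 and 715 CPM in Aromhum mice. In the shallowest cells it stood at 1212, 715 and 951 CPM and 713, 663 and 728 CPM, so the groups overlapped there. Inside fibroblast-like cluster 0 alone, in cells of 2000 to 5000, 5000 to 10000 and 10000 to 20000 UMIs, the ratio was -0.43, -0.94 and -1.13 for Socs3, 0.02, -0.43 and -0.88 for Cebpd and -0.63, -1.11 and -1.03 for Fos, so the ratios of Socs3 and Cebpd were lower in deeper cells of 1 cluster as well, and that of Fos between the first and the second range only. Junb, at -0.18, -0.60 and -0.78, was also lower in deeper cells of that cluster, but Jun, at -0.47, -0.46 and -0.38, was not. Jund, at -0.33, -0.38 and -0.36, was slightly lower between the first and the second range only. Over all fibroblast-like cells Jun had -0.07 in the shallowest cells, -0.50 at 5000 to 10000 UMIs and -0.31 at 20000 UMIs or more. In endothelial cells the ratios were also lower in deeper cells, with Fos at -0.10 in cells of 1000 to 2000 UMIs and -1.15 in cells of 20000 or more, and Cebpd at 0.42 and -0.48. Among cells of 2000 to 5000 UMIs, edgeR called 0 members in both types. Among fibroblast-like cells it called 0 at 5000 to 10000 UMIs and 5 over 10000 UMIs. Among endothelial cells of 5000 to 10000 UMIs fewer members were called than in the main fit. No share over all genes is given for these fits. Deep cells were a larger share of the Aromhum than of the WT fibroblast-like cells, 535 to 846 beside 67 to 87 per mouse at 20000 UMIs or more. No test was run on these ratios, and whether the depth or the kind of cell sets their size was not tested.

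**Figure D5:**
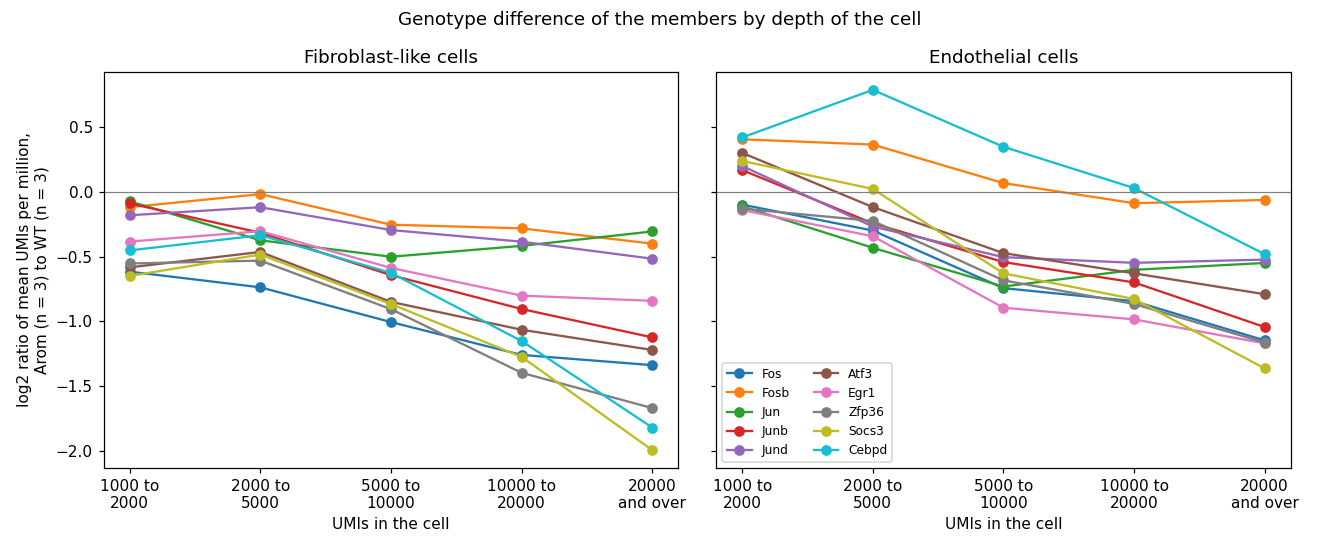
Log2 ratio of mean CPM in Aromhum (3 mice) to WT (3 mice) for each of the 10 members (coloured lines) against the UMIs held by the cell (x axis, 5 bins), in fibroblast-like (left) and endothelial cells (right); the grey line is no difference. Most lines fall from left to right, Socs3 in fibroblast-like cells from -0.65 to -1.99 and Fos in endothelial cells from -0.10 to -1.15.

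The order of cell types by level also shifted between genotypes, given here as mean CPM over 3 mice without TMM scaling and as a description. Cebpd was highest in fibroblast-like cells of WT mice, at 2076 ± 150 CPM (SD, n = 3), apart from the next type, glial cells, at 1111 ± 129 CPM. In Aromhum mice fibroblast-like cells ranked in place 4, at 899 ± 396 CPM, and overlapped with the types next to them. Fos was highest in mesothelial cells in both genotypes, at 4826 ± 1494 CPM in WT and 4440 ± 148 CPM in Aromhum mice, followed by lymphatic endothelial cells at 3852 ± 626 CPM and 3612 ± 130 CPM. The first 2 overlapped in WT and were apart in Aromhum mice. Fibroblast-like cells were in place 4 for Fos in WT, at 2435 ± 242 CPM, overlapping with glial cells, and in place 6 in Aromhum mice, at 1036 ± 307 CPM. For Socs3 they were in place 3 in WT, at 590 ± 126 CPM, and in place 6 in Aromhum mice, at 227 ± 116 CPM, with overlap to both neighbours.

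Over 60 points, 10 cell types by 6 mice, centred within each type, the genes whose log2 level most resembled the mean of the 10 members were Ppp1r15a (Pearson r = 0.89), the phosphatase subunit that ends the integrated stress response, Sertad1 (0.86), Nop58 (0.84), Ccnl1 (0.82), Ier2 (0.81), Wsb1 (0.81), Csrnp1 (0.81) and Kdm6b (0.80), out of 2498 genes compared. Points of 1 mouse share a library, so no p is given. Ppp1r15a stood at 473, 441 and 465 CPM in WT and 259, 234 and 281 CPM in Aromhum fibroblast-like cells. Among the members, Zfp36 (0.91), Atf3 (0.91) and Egr1 (0.91) were closest to that mean, and Fosb (0.62) and Cebpd (0.69) furthest from it. Each member is part of that mean, so the members' values cannot be set beside those of the other genes. Levels were not centred within genotype, so the genotype difference is part of the likeness.

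Other genes of the same response were taken from lists of known early response, heat shock and pathway genes. Of 48 early response genes 12 were lower and 0 higher in fibroblast-like cells and 13 and 0 in endothelial cells, with median log2 folds of -0.40 and -0.28. Over all genes 5.83% were lower and 7.28% higher in fibroblast-like and 4.61% and 6.44% in endothelial cells, so a count of 1 or 2 in the shorter lists that follow is near the background and no result about the list. The counts of all lists depend on single mice: without WT 2, WT 3 or Aromhum 1 no gene of any kind was called lower in fibroblast-like cells by edgeR, although 3205 to 3655 had an unadjusted p under 0.05, and without Aromhum 2 the number was 2 there and 0 in endothelial cells, where 3542 had an unadjusted p under 0.05. Myc, the growth-promoting early factor, stood at 420, 338 and 373 CPM in WT and 203, 164 and 207 CPM in Aromhum fibroblast-like cells, a log2 fold of -0.98 ± 0.14 (SE, adjusted p = 0.0197), and had overlapping groups in endothelial cells. Ier5l was lower in both, at log2 folds of -1.17 and -1.33 (adjusted p = 0.0279 and 0.0125). Btg2, an early antiproliferative gene, was lower in endothelial cells, from 1327, 1020 and 1110 CPM to 653, 580 and 733 CPM (log2 fold -0.81 ± 0.14, SE, adjusted p = 0.0173), with overlapping groups in fibroblast-like cells. In mesothelial cells the median of the list was 0.39, with 0 of 48 called.

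Of the 16 genes of the heat shock list 3 were lower and 1 higher in fibroblast-like cells, and 5 were lower and 0 higher in endothelial cells. The list also holds Ppp1r15a, the gene of the integrated stress response named above, and it is among those lower in both types. Its log2 folds were -0.834 and -0.685 (adjusted p = 0.0171 and 0.0229). The inducible chaperones had large endothelial folds. Hspa1a stood at 872, 955 and 1023 CPM in WT and 264, 252 and 390 CPM in Aromhum mice, a log2 fold of -1.65 (adjusted p = 0.0103), and Hspa1b had a log2 fold of -1.59 (adjusted p = 0.0103). These 2 genes are near-identical copies, so their UMIs may be divided between them. In fibroblast-like cells Hspa1b had a log2 fold of -0.67 (adjusted p = 0.0235), Hspa1a was not called at -0.65, and Hsph1 was higher at 0.65 (adjusted p = 0.0453). In mesothelial cells the median was 0.51, with 0 of 16 called.

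Of 16 gp130 and STAT3 pathway genes tested, 2 were lower and 2 higher in fibroblast-like cells, and 1 was lower and 2 higher in endothelial cells. These counts are near the shares over all genes. Cish stood at 23.9, 19.5 and 23.5 CPM in WT and 6.04, 5.12 and 9.82 CPM in Aromhum fibroblast-like cells, a log2 fold of -1.68 (adjusted p = 0.0201), and Socs1 had a log2 fold of -0.53 (adjusted p = 0.0448). Socs2 was higher, from 56.3, 63.6 and 62.5 CPM to 142, 173 and 98.0 CPM (log2 fold 1.18, adjusted p = 0.0222), as was the ligand Il11 at 1.45 (adjusted p = 0.0463). Il6st, which encodes gp130, was not called in fibroblast-like cells at a log2 fold of 0.01 and was higher in endothelial cells at 0.77 (adjusted p = 0.0259).

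Of 14 glucocorticoid targets 2 were lower and 0 higher in fibroblast-like cells, and 1 was lower and 1 higher in endothelial cells, again near the shares over all genes. Cdkn1a, a cell cycle inhibitor, had 747, 539 and 534 CPM in WT and 293, 339 and 346 CPM in Aromhum fibroblast-like cells, a log2 fold of -0.90 (adjusted p = 0.0248), while Tsc22d3, which encodes the glucocorticoid-induced leucine zipper, was not called at -1.12 (adjusted p = 0.0551). Fkbp5 had overlapping groups in fibroblast-like cells and was higher in endothelial cells, with a log2 fold of 1.37 (adjusted p = 0.0228).

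Of 14 genes known as AP-1 targets 1 was lower and 3 were higher in fibroblast-like cells, and 0 were lower and 5 higher in endothelial cells. Timp1, an inhibitor of matrix metalloproteinases, rose from 164, 160 and 167 CPM to 1526, 972 and 379 CPM in fibroblast-like cells, a log2 fold of 2.55 (adjusted p = 0.0244), and had a log2 fold of 2.37 in endothelial cells (adjusted p = 0.0145), where the fibroblast markers were higher as well. Mmp2 and Cd44 were higher in fibroblast-like cells, at 0.71 and 0.53 (adjusted p = 0.0435 and 0.0438), and Ccnd1 lower at -0.67 (adjusted p = 0.0355). Of 10 NF-kB feedback genes 2 were lower and 2 higher in fibroblast-like cells, Icam1 at -0.72 and Tnfaip3 at 1.33 among them (adjusted p = 0.0244 and 0.0411), and 0 were lower and 1 higher in endothelial cells.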

How the data were processed

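Single cells of LAM from 3 WT and 3 Aromhum littermate males were sequenced as 10x 3′ libraries. The deposited values are UMI counts per gene and cell, which the authors made with Cell Ranger 3.0.2 on mm10 with the CYP19A1 sequence added. All 63647 barcodes deposited were clustered. Those in clusters left unnamed, 2.95% to 4.25% of each mouse, and the neutrophils entered no test. The members and lists were chosen with earlier results of these data known. Counts were scaled to 10000, and 2000 variable genes without the members and listed genes, 30 principal components, 20 neighbours and Leiden resolution 0.8 (scanpy 1.11.5, leidenalg 0.10.2) gave 36 clusters, named from fixed markers. Where a name rests on rebuilt clusters it may differ from the study's. UMIs were summed per mouse and type, a type being tested if no mouse held fewer than 20 of its cells, TMM-scaled, filtered with filterByExpr and tested in edgeR 4.0.16 (R 4.3.3) with Benjamini-Hochberg adjustment, after testing on simulated data. Folds are log2, Aromhum against WT. The SE printed was calculated back as the absolute log2 fold over the square root of the quasi-likelihood F statistic. Alternatives used DESeq2 1.42.0, limma 3.58.1 and other sets of cells and clusters. Doublets were kept, since Scrublet's automatic threshold marked 0 in WT 2 and WT 3. Leaving out 6.33% to 11.0% of each library by score was an alternative.

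The named genes are all members, up to 4 genes per list in fibroblast-like and 2 in endothelial cells by adjusted p, the same genes in the other of these types, and the 8 genes most like the members with at least 20 CPM in each type. Samples were grouped by genotype label. According to the study's methods 1 mouse of each genotype was processed on each of 3 dates, but the labels do not tie a date to a mouse, so dates could not be fitted. Deviations of same-numbered mice from the group means correlated above 0.1 in all 3 pairs in 3 types. They were 0.183, 0.101 and 0.137 in MuSC/myoblast cells, 0.125, 0.16 and 0.226 in myonuclei and 0.335, 0.168 and 0.157 in macrophages. Endothelial cells, at 0.191, 0.074 and 0.312, missed this cut. It was applied by type, although all types come from the same mice, so it cannot show whether mice were paired. p-values of the edgeR tests per type measure the spread between 3 mice per genotype, moderated over all genes. In the difference tests the mouse is a factor, so they measure the spread between mice in the difference between types. With the replicate block the replicate effect is taken out first. Shares cover cells, which are not replicates.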

Additional observations from a re-analysis of the deposited data

Results flagged for a closer look

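The genotype difference of 31 combinations of member and cell type differed from that in fibroblast-like cells in edgeR's interaction test with the mouse as a factor. All 31 were smaller falls, or rises, in the other type. Each value is the log2 fold of the other type minus that of fibroblast-like cells, over 3 WT and 3 Aromhum mice, and the 9 comparisons share the fibroblast-like sums. Most of these calls depend on the fit: limma voom with an estimated correlation within the mouse called 1 member for endothelial and 3 for mesothelial cells and 0 for each of the other 7 types. Within the study's limits on cells, edgeR called 0 for endothelial and 1 for lymphatic endothelial cells.

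In endothelial cells the differences were 0.56 for Fos, 0.66 for Atf3, 0.70 for Zfp36, 0.88 for Socs3 and 1.51 for Cebpd. In lymphatic endothelial cells they were 1.24 for Fos, 0.85 for Junb, 1.01 for Atf3, 1.12 for Zfp36, 1.28 for Socs3 and 1.44 for Cebpd. In glial cells they were 0.93 for Fos, 0.68 for Junb, 1.10 for Atf3, 1.05 for Zfp36, 0.98 for Socs3 and 1.25 for Cebpd.

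In smooth muscle cells Zfp36, Socs3 and Cebpd differed by 0.91, 1.01 and 1.25, and in mesothelial cells Zfp36 differed by 1.87. In macrophages and monocytes Fos, Socs3 and Cebpd differed by 1.07, 2.13 and 1.55. In T cells, where the median over all genes was 0.38, the differences were 1.54 for Fos, 1.29 for Jun, 1.89 for Atf3, 1.39 for Egr1, 1.67 for Zfp36, 2.41 for Socs3 and 1.67 for Cebpd.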

How the results depend on the processing

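The number of members called lower changed when 1 mouse was left out and when cells were limited by depth. For most of these settings the share over all genes called is not given, so the counts have no background beside them. With 1 mouse left out it ranged from 0 to 8 in fibroblast-like cells, 0 to 8 in endothelial cells, 0 to 5 in smooth muscle cells and 0 to 7 in MuSC/myoblast cells, the upper value being without Aromhum 3. In fibroblast-like clusters it ranged from 2 to 7 (cluster 0), 0 to 4 (2), 1 to 8 (4), 0 to 5 (10), 0 to 8 (13), 0 to 8 (16) and 0 to 3 (28). Members with a smaller fall than in fibroblast-like cells then numbered 0 to 5 for endothelial, 1 to 7 for lymphatic endothelial, 1 to 3 for smooth muscle, 0 to 10 for mesothelial, 0 to 1 for MuSC/myoblast, 0 to 1 for myonuclei, 1 to 7 for glial, 1 to 4 for macrophage and 2 to 7 for T cells. The mean difference in the share of cells with a UMI was -15.1 to -9.51 points in fibroblast-like and -8.72 to -4.78 points in endothelial cells. Fewer mice were fitted in these. The causes of these changes and of the others given here were not tested. Within the study's limits on cells (200 to 2500 genes, 1000 UMIs, 5% mitochondrial) the calls were 0 in fibroblast-like cells and 0 in cluster 16, and the smaller falls 0 for endothelial, 1 for lymphatic endothelial and 5 for macrophage cells. With the upper limit on genes alone they were 0 in fibroblast-like, 3 in endothelial and 1 in MuSC/myoblast cells, and with the mitochondrial limit alone 0 in smooth muscle, MuSC/myoblast and cluster 16 cells. In cells of 2000 to 5000 UMIs they were 0 in fibroblast-like, endothelial, smooth muscle, MuSC/myoblast, cluster 0 and cluster 16 cells. In cells of 5000 to 10000 UMIs, a range chosen after seeing the data as was that over 10000, they were 0 in fibroblast-like, 3 in endothelial, 2 in smooth muscle and 0 in MuSC/myoblast cells. With doublets left out they were 3 in endothelial, 0 in smooth muscle, 1 in MuSC/myoblast, 1 in myonuclei and 0 in cluster 16. Equal weight of clusters gave 1 in endothelial cells, resolution 0.4 gave 0 in MuSC/myoblast cells, listed genes kept in the clustering 0 in smooth muscle cells, blocks of columns as clusters (added after seeing the data) 4 in MuSC/myoblast cells, and RLE size factors 0 in cluster 16. Without a filter on low counts the calls were 6 in MuSC/myoblast cells, 2 in myonuclei, and 1, 1, 2, 3 and 3 in clusters 2, 10, 13, 16 and 28, and the smaller falls 4 for mesothelial and 2 for myonuclei. DESeq2 called 3 in smooth muscle, 6 in MuSC/myoblast cells, 2 in myonuclei, and 6, 1 and 8 in clusters 2, 10 and 16. limma voom gave 1, 0, 0, 3, 0, 0 and 0 smaller falls for endothelial, lymphatic endothelial, smooth muscle, mesothelial, glial, macrophage and T cells.

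With the replicate number as a block the calls were 6 in smooth muscle, 5 in MuSC/myoblast, 2 in myonuclei and 1 in glial cells, and 1, 1, 7 and 2 in clusters 2, 10, 16 and 28. Same-numbered mice correlated above 0.1 in all 3 pairs in MuSC/myoblast cells, myonuclei and macrophages only. All types come from the same mice and differently numbered pairs were not compared, so this cut cannot show whether mice were paired. The block moved no other count of calls by over 1.5 times, and no share over all genes is given with it.

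No fibroblast-like fold changed sign in 230 alternative values. Signs turned for Fosb in Endothelial cells: 0.19 within the study's limits, 0.023 with the mitochondrial limit, 0.21 with the upper gene limit, 0.35 at 2000 to 5000 UMIs, 0.036 without doublets, 0.056 at resolution 0.4, 0.17 with listed genes kept, 0.081 with blocks of columns, 0.028 at 5000 to 10000 UMIs, 0.14 with equal weight, and -0.062 to 0.063 with 1 mouse left out. They turned for endothelial Socs3 at 2000 to 5000 UMIs (0.004), for endothelial Cebpd over 10000 UMIs (-0.16) and with equal weight (-0.03), for Fosb in smooth muscle cells with equal weight (0.031) and for Jun in MuSC/myoblast cells at resolution 0.4 (0.081). At 2000 to 5000 UMIs they turned for Cebpd in cluster 0 (0.012), and for Fosb (0.71), Jund (0.01), Atf3 (0.40), Egr1 (0.14) and Zfp36 (0.35) in cluster 16. With 1 mouse left out the fold of Cebpd was -0.25 to 0.10 in smooth muscle and -0.63 to 0.25 in MuSC/myoblast cells. In types with no main call signs turned in 16 of 210 values in lymphatic endothelial cells, 16 of 210 in myonuclei, 9 of 200 in mesothelial, 10 of 220 in glial, 16 of 200 in macrophage and 24 of 160 in T cells.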

Other observations

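Neutrophils, named from 3 markers and left out of the tests because a mouse held as few as 6 of them, are given for 2 members, Socs3 and Cebpd, chosen after their values were seen. Socs3 stood at 639, 1001 and 707 CPM in the 3 WT mice (10, 10 and 6 cells) and 521, 471 and 522 CPM in the 3 Aromhum mice (23, 61 and 7 cells). Cebpd stood at 479, 459 and 1360 CPM in WT and 651, 666 and 470 CPM in Aromhum mice. Socs3 rested on 112 and Cebpd on 127 UMIs over the 6 mice, so these are values of few molecules. Junb was higher in every library, at 2149 to 4794 CPM. The share of free RNA in these values was not tested, and no comparison was made.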
